A study of Mus musculus with 12 samples.

Results

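The tumor necrosis factor (TNF) superfamily was followed in the intestine of mice 48 h after total-body irradiation. Its members were taken as every gene whose symbol starts with Tnfsf or Tnfrsf and a digit, with Tnf, Lta, Ltb, Ltbr, Cd27 and Cd40 added, 1 further receptor gene left out of the rule, and an average of 0.1 FPKM or more over the 12 libraries required. FPKM count the fragments of a gene scaled by transcript length and by the mapped reads of the library, so levels of genes of different length can be set side by side. Of 22063 genes in the table, 33 were members, 12 of them ligands and 21 receptors. The 3 symbols below the limit were Tnfsf11, with a mean of 0.0948 FPKM, Tnfrsf8 with 0.0838 FPKM and Tnfsf18 with 0.0418 FPKM.

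The groups, with 3 libraries each, were LL_WBI and its controls LL_Ctrl, and HH_WBI and its controls HH_Ctrl, where the labels write WBI for whole-body irradiation. All mice were female C57BL6/J, bought at 7 to 8 weeks of age and kept for 1 week before a dose of 10 Gy of electrons under avertin anesthesia or no irradiation, and all samples are labelled 48 h. LL stands for a low mean and a low instantaneous dose rate, given on a clinical linear accelerator, and HH for a high mean and a high instantaneous dose rate, given on a compact linear accelerator, so the mode and the machine cannot be told apart. Whether each library is a separate mouse is not stated, and p-values therefore measure the spread between these libraries, which may in part be technical. Read depth is unknown, since only FPKM were used.

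Ligands of this family are mostly trimeric proteins on the surface of immune and stromal cells, some of which are cut loose into the tissue fluid, and their receptors either carry a death domain that can start cell death or recruit TRAF adaptor proteins that switch on NF-kappaB. In the gut, TNF drives inflammation and the shedding of epithelial cells, lymphotoxin signals through Ltbr to build lymphoid follicles, and BAFF and APRIL keep B cells and plasma cells alive. TWEAK and its receptor Fn14 act in tissue injury and repair.

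Several libraries stood apart before any comparison was made. Genes of the pancreas, without the goblet gene Zg16, took 5.77% of all FPKM in LL_WBI 1 and 20.6% in LL_WBI 2, against 0.00583% to 0.0494% in the other 10 libraries. The ileal gene Fabp6 was at 82.2 FPKM in LL_WBI 3 and 586 FPKM in HH_WBI 3, against 0.078 to 8.75 FPKM elsewhere. Guca2a, of the same marker list, was at 462 to 1219 FPKM in all HH libraries and at 1100 FPKM in LL_WBI 3. In the other LL libraries it was at 94.5 to 152 FPKM. Markers of the duodenum summed to 383 FPKM in LL_WBI 2, against 14.8 to 54.0 FPKM elsewhere. The summed level of 9 B cell markers was 68.4 FPKM in HH_Ctrl 1 and 71.5 FPKM in HH_Ctrl 3, against 4.67 FPKM in HH_Ctrl 2 and 4.94 to 13.6 FPKM in the other groups. HH_Ctrl had low sums of 6 fibroblast markers (23.8 to 29.0 FPKM), 5 endothelial markers (5.66 to 10.0 FPKM) and 10 macrophage markers (55.8 to 153 FPKM). Every other library had at least 93.2, 19.4 and 277 FPKM. Smooth muscle markers were not low there, at 432 to 493 FPKM in HH_Ctrl, against 308 to 346 FPKM in LL_Ctrl. They summed to 266 to 555 FPKM in HH_WBI and 368 to 979 FPKM in LL_WBI. The macrophage marker Cd14 was at 3.89, 3.82 and 5.40 FPKM in HH_Ctrl, against 3.17, 2.83 and 2.55 FPKM in LL_Ctrl. The epithelial markers, at 2957 to 6274 FPKM for the sum of 7, were high throughout, as the labelled tissue requires. The part that these differences play in the results below was not tested.

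A pair of receptors made up most of the family's RNA. Tnfrsf1a (ENSMUSG00000030341), the main receptor for TNF with a death domain, and Ltbr (ENSMUSG00000030339), the receptor for membrane lymphotoxin, together held 53.8% to 67.3% of the members' summed level, which was 203 to 318 FPKM in a library. Next came Tnfrsf14, a receptor for the ligands LIGHT and lymphotoxin alpha that also binds BTLA, with a mean of 16.2 FPKM over the 12 libraries. It was followed by Tnfsf10, which encodes the death ligand TRAIL, with 13.2 FPKM, by Tnfsf13, which encodes APRIL, with 12.5 FPKM, and by Tnfrsf12a, which encodes Fn14, with 12.4 FPKM. The libraries of these 4 genes overlapped in level, and their order among themselves is not separated by the spread. A further 14 members had means of 1 to 10 FPKM, 5 had 0.5 to 1 FPKM and 8 had 0.1 to 0.5 FPKM.

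**Figure D1:**
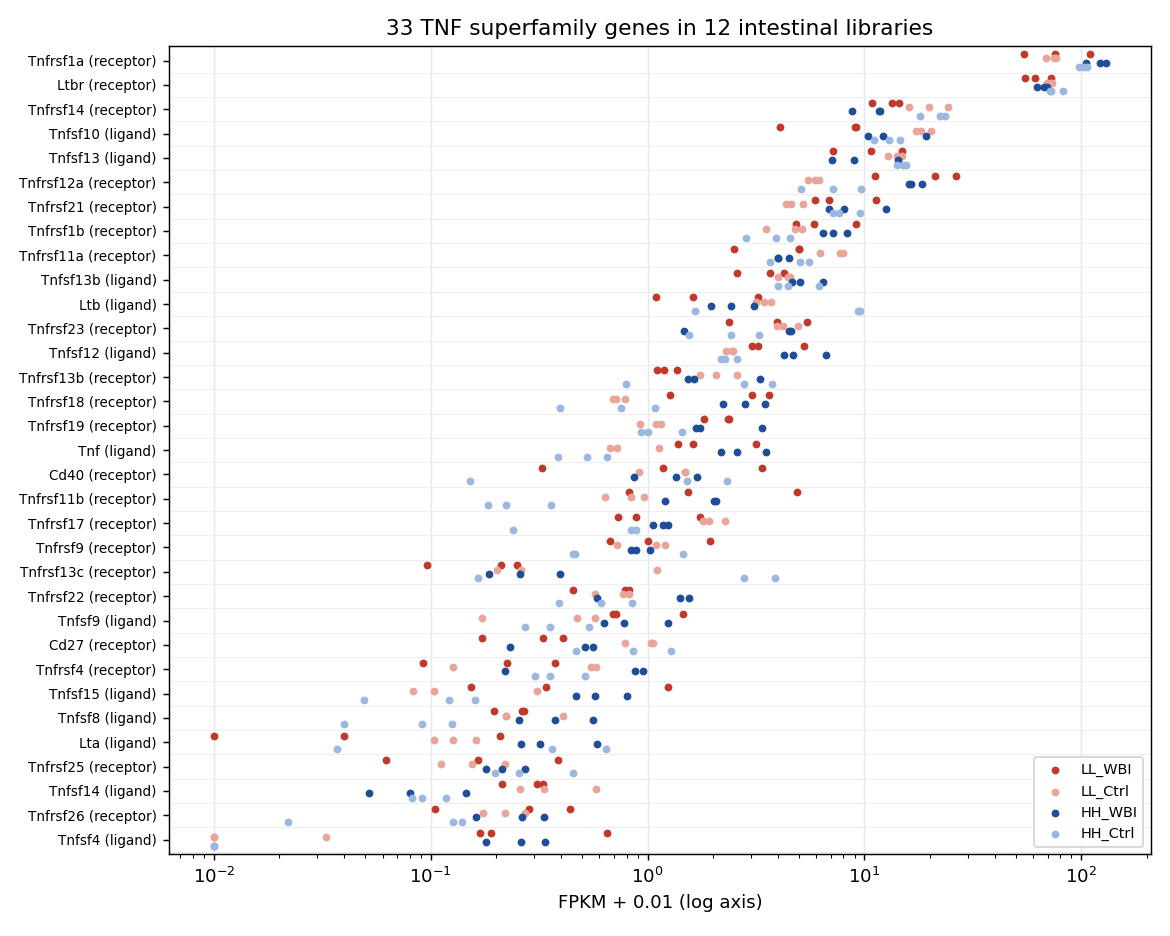
Level of each of the 33 members (FPKM + 0.01 on a log axis) in the 12 libraries, 1 point a library and ordered by mean, with the groups in colour. Tnfrsf1a and Ltbr lie above 50 FPKM in all libraries, and the lower members spread over a wider range.

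Tnfrsf1a was at 105, 130 and 122 FPKM in HH_WBI, against 103, 97.9 and 106 FPKM in HH_Ctrl. In the LL mode it was at 75.9, 54.4 and 110 FPKM in LL_WBI, against 76.7, 69.1 and 74.9 FPKM in LL_Ctrl. Neither pair of groups separated, and the library with the lowest value, LL_WBI 2, is the one richest in pancreatic RNA. Ltbr was at 69.5, 67.5 and 62.2 FPKM in HH_WBI, against 72.6, 82.2 and 71.7 FPKM in HH_Ctrl. Its LL values were 72.8, 55.1 and 61.2 FPKM in LL_WBI, against 69.4, 73.1 and 72.0 FPKM in LL_Ctrl. The 2 receptors were called in neither mode, and the log2 fold changes were 0.21 ± 0.11 for Tnfrsf1a and -0.18 ± 0.10 for Ltbr in the HH mode.

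The comparison of HH_WBI with HH_Ctrl asked which members respond to the HH mode. The ligand genes Tnf and Tnfsf12 and the receptor genes Tnfrsf11b, Tnfrsf12a and Tnfrsf18 were higher after irradiation, by 2.21-fold to 7.19-fold in the group means, and no member was called lower. A call means a Benjamini-Hochberg adjusted p under 0.05 over all genes tested and a log2 fold change above 1 in size, from limma on log2(FPKM + 0.1) for genes that averaged 0.5 FPKM or more over the libraries compared. Log2 fold changes are given ± their standard error. Calls were made for 5 of the 26 members tested (19.2%), against 12.4% of all 12760 genes in either direction, 10.0% higher and 2.38% lower. The median log2 fold change of the tested members was 0.40, against 0.09 for all genes. In tissue RNA, fewer cells of a type and less RNA per cell cannot be told apart.

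Tnf (ENSMUSG00000024401), the founding inflammatory cytokine of the family, was at 2.58, 3.51 and 2.18 FPKM in HH_WBI, against 0.376, 0.642 and 0.514 FPKM in HH_Ctrl. Every irradiated library lay above every control library, and the log2 fold change was 2.22 ± 0.28 (adjusted p = 0.00173). Macrophage markers summed to 360 to 378 FPKM in HH_WBI, against 55.8 to 153 FPKM in HH_Ctrl. All HH_Ctrl values of Tnf also lay below those of LL_Ctrl, which were 0.663, 0.715 and 1.12 FPKM. Its receptor gene Tnfrsf1b (ENSMUSG00000028599), for the TNF receptor found mainly on leukocytes and endothelium, was at 8.26, 7.12 and 6.42 FPKM in HH_WBI, against 3.90, 2.84 and 4.55 FPKM in HH_Ctrl. These groups did not overlap either, and the log2 fold change of 0.95 ± 0.20 (adjusted p = 0.010) passed the adjusted p, as 36.2% of all genes did, but stayed under the fold limit.

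Tnfrsf12a (ENSMUSG00000023905), the receptor Fn14, was at 16.4, 18.4 and 16.02 FPKM in HH_WBI, against 7.17, 5.12 and 9.64 FPKM in HH_Ctrl. The 3 irradiated libraries were close together and all above the controls, with a log2 fold change of 1.25 ± 0.22 (adjusted p = 0.00494). Its ligand gene Tnfsf12 (ENSMUSG00000097328), for TWEAK, was at 6.61, 4.23 and 4.67 FPKM in HH_WBI, against 2.27, 2.18 and 2.58 FPKM in HH_Ctrl. Ligand and receptor were thus both higher, with a log2 fold change of 1.09 ± 0.20 for Tnfsf12 (adjusted p = 0.00649). The call of Tnfsf12 ended without HH_WBI 1, where the log2 fold change was 0.90, with a pseudocount of 1 (0.87) and with median-ratio scaling (0.99), each time by the fold limit alone. Tnfsf12 neighbours Tnfsf13 on chromosome 11, and the value of each is uncertain, since whether reads were shared between the 2 genes was not tested.

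Tnfrsf11b (ENSMUSG00000063727) encodes osteoprotegerin, a secreted decoy receptor that binds RANK ligand and TRAIL. It was at 2.05, 2.01 and 1.20 FPKM in HH_WBI, against 0.212, 0.347 and 0.173 FPKM in HH_Ctrl. Its mean in HH_Ctrl was under the limit of 0.5 FPKM, which it passed through HH_WBI. No library of either group came near the other, and the log2 fold change of 2.43 ± 0.34 (adjusted p = 0.00245) was the largest among the members in this comparison. The signalling receptor for the same ligand, Tnfrsf11a (RANK), was at 4.49, 3.99 and 3.98 FPKM in HH_WBI, against 5.06, 5.52 and 3.65 FPKM in HH_Ctrl. The level of RANK over that of osteoprotegerin was therefore 2.19, 1.98 and 3.32 in HH_WBI, against 23.9, 15.9 and 21.1 in HH_Ctrl. Tnfrsf11b is expressed by fibroblasts and other stromal cells, and the fibroblast markers summed to 155 to 257 FPKM in HH_WBI, against 23.8 to 29.0 FPKM in HH_Ctrl.

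Tnfrsf18 (ENSMUSG00000041954), which encodes GITR, a costimulatory receptor of regulatory and activated T cells, was at 3.46, 2.80 and 2.22 FPKM in HH_WBI, against 1.07, 0.383 and 0.745 FPKM in HH_Ctrl. The groups were apart, with a log2 fold change of 1.88 ± 0.36 (adjusted p = 0.00674), while the summed T cell markers were at 22.8 to 34.5 FPKM in HH_WBI, against 32.4 to 46.4 FPKM in HH_Ctrl. Within that list Cd4, which marks helper and regulatory T cells, was at 3.77, 1.999 and 2.80 FPKM in HH_WBI, against 2.37, 0.459 and 1.85 FPKM in HH_Ctrl, which overlap. Tnfrsf14 (ENSMUSG00000042333) was lower, at 11.8, 11.6 and 8.80 FPKM in HH_WBI, against 23.5, 22.2 and 18.1 FPKM in HH_Ctrl. Its highest irradiated library was under its lowest control, and the log2 fold change of -0.98 ± 0.16 (adjusted p = 0.00391) was just short of the fold limit. With median-ratio scaling, which moved the median of all genes in this comparison by -0.10, it was -1.08 and called lower. The same call was made without HH_Ctrl 3 (-1.09), HH_WBI 1 (-1.05) or HH_WBI 2 (-1.04).

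**Figure D2:**
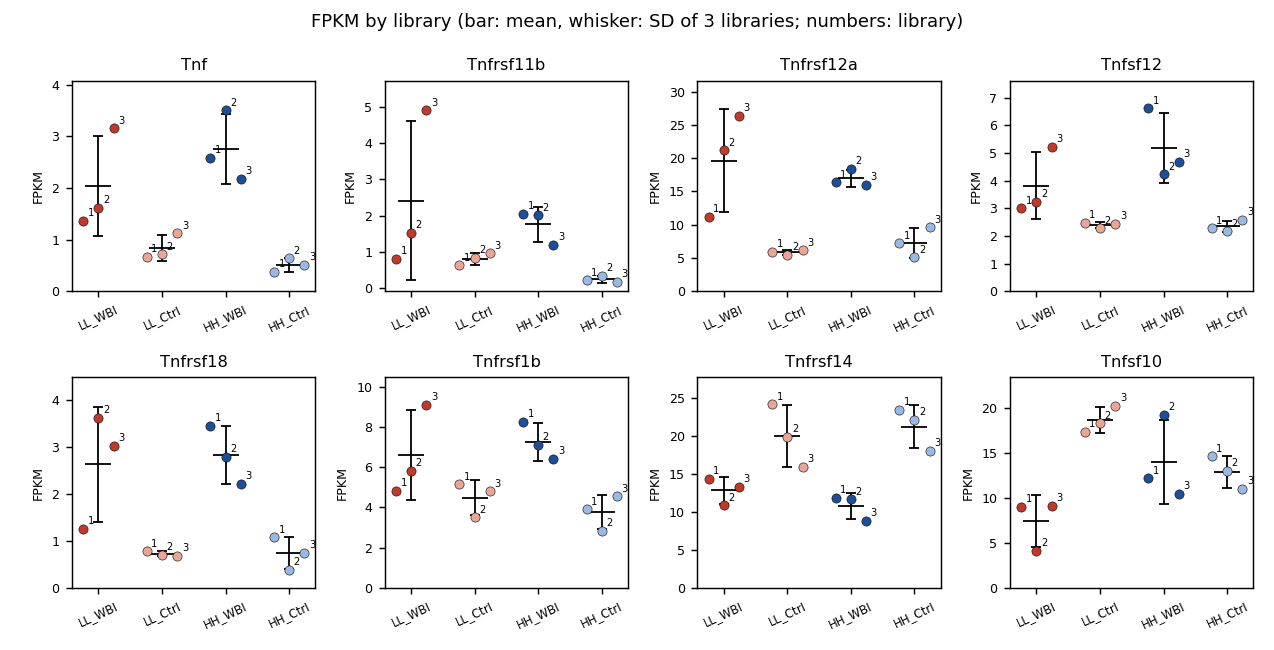
FPKM in every library of 8 members, with the group mean as a bar and the SD of 3 libraries as a whisker, and the library number beside each point. In the HH mode the irradiated libraries of Tnf, Tnfrsf11b, Tnfrsf12a, Tnfsf12, Tnfrsf18 and Tnfrsf1b all lie above the controls and those of Tnfrsf14 all below, and LL_WBI 1 is the lowest LL_WBI library for all but Tnfrsf14 and Tnfsf10.

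The stretches around the start sites of Tnf, Tnfrsf12a and Tnfrsf18 are shown because these are the members called higher in the HH mode for which RefSeq (GRCm38.p6) gave a promoter, from 250 bases before to 50 after the start. Capitals mark matches to GGGNNNNNCC, a loose form of the site bound by NF-kappaB, searched on both strands. The stretch of Tnf is chr17:35201958-35202257 on the minus strand, that of Tnfrsf12a chr17:23677400-23677699 on the minus strand and that of Tnfrsf18 chr4:156026072-156026371 on the plus strand.
Tnf: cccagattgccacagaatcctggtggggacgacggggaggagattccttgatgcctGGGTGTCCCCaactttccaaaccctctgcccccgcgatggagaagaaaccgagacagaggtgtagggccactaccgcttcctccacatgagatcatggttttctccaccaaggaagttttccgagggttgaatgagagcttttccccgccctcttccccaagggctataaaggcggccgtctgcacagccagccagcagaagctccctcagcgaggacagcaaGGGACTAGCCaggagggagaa
Tnfrsf12a: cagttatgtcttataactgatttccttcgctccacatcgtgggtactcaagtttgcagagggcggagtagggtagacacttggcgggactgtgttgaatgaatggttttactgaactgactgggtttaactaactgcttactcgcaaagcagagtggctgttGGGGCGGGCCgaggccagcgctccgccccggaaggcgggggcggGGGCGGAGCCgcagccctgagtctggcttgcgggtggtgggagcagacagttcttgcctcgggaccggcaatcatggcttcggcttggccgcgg
Tnfrsf18: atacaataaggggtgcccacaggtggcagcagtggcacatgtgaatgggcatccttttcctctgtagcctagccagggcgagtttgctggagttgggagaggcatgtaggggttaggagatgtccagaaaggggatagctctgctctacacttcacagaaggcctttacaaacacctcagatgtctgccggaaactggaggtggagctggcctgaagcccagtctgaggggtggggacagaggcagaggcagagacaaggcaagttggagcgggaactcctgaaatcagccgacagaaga
Counted from the start, with negative positions before it, Tnf had a match at -194 to -185 and another at 30 to 39, and the letters TATAAA stood at -29 to -24. Tnfrsf12a had matches at -88 to -79 and at -44 to -35, both in GC-rich sequence, and Tnfrsf18 had none in this window. The motif is common: it stood in 18 of the 30 promoters found for 26 members, against 50.8% of all 32851 promoters. An AP-1-like motif, TGANTCA, stood in 5 of the 30 promoters, against 7.81% of all, and in none of the 3 shown.

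Among the members tested and not called in the HH mode, Tnfrsf19 (TROY), a receptor also found in stem cells, had a log2 fold change of 0.90 (adjusted p = 0.0620), Tnfsf9, the ligand of the T cell receptor Tnfrsf9, of 1.02 (adjusted p = 0.0658) and Tnfsf13 of -0.62 (adjusted p = 0.0742). Tnfsf9 averaged 0.377 FPKM in HH_Ctrl and passed the limit of 0.5 FPKM through HH_WBI. Tnfsf13 (ENSMUSG00000089669) was at 8.91, 14.2 and 7.06 FPKM in HH_WBI, against 15.6, 15.1 and 14.1 FPKM in HH_Ctrl. HH_WBI 2 thus reached the controls. Over the 26 tested members the groups did not overlap for 9 that were higher, against a background of 30.1%, and for 2 that were lower, against 21.7%. The remaining members tested, Tnfrsf4, Tnfrsf9, Tnfrsf11a, Tnfrsf13b, Tnfrsf17, Tnfrsf21, Tnfrsf22, Tnfrsf23, Tnfrsf1a, Ltbr, Cd27, Cd40, Ltb, Tnfsf10, Tnfsf13b and Tnfrsf13c, had adjusted p of 0.138 or more. Without HH_WBI 3, the library with the ileal gene, 8 of 25 members were called, against 12.8% of all genes, and Tnfrsf1b (1.03), Tnfrsf19 (1.07) and Tnfrsf22 (1.21) were those added.

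Members under the limit for testing included 3 T cell costimulatory ligands, named here after their values were seen. Tnfsf4 (ENSMUSG00000026700), the OX40 ligand, was at 0.328, 0.251 and 0.169 FPKM in HH_WBI and is listed at 0 in all 3 libraries of HH_Ctrl. In the LL mode it was at 0.158, 0.638 and 0.179 FPKM in LL_WBI, and is listed at 0 in LL_Ctrl 1 and 2 and at 0.023 FPKM in LL_Ctrl 3. It reached the 0.1 FPKM asked of members only through the irradiated libraries. Tnfsf15 (TL1A) was at 0.793, 0.562 and 0.460 FPKM in HH_WBI, against 0.111, 0.039 and 0.150 FPKM in HH_Ctrl, and Tnfsf8 (the CD30 ligand) at 0.363, 0.551 and 0.245 FPKM in HH_WBI, against 0.115, 0.030 and 0.081 FPKM in HH_Ctrl. In the LL mode both genes overlapped. Tnfsf15 was at 0.331, 0.144 and 1.23 FPKM in LL_WBI, against 0.298, 0.093 and 0.073 FPKM in LL_Ctrl. Tnfsf8 was at 0.185, 0.254 and 0.260 FPKM in LL_WBI, against 0.212, 0.396 and 0.213 FPKM in LL_Ctrl. Every HH_Ctrl library of Tnfsf8 was below every LL_Ctrl library. These 3 ligands are given as levels, with no test. Their control levels are so low that they would enter a test through HH_WBI. Lta, Tnfsf14, Tnfrsf25 and Tnfrsf26 were not tested either.

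The comparison of LL_WBI with LL_Ctrl asked the same of the LL mode. No member of the 24 tested was called, against a background of 0.247% of 12946 genes, and 13 had an unadjusted p under 0.05 (6 higher and 7 lower), against 18.3% of all genes (7.16% higher and 11.1% lower). Tnfrsf12a, Tnfrsf19 and Tnfsf9 had fold changes no smaller than in the HH mode. The standard error was larger in the LL mode for Tnfrsf12a and Tnfsf9 and smaller for Tnfrsf19. Tnfsf9 averaged 0.396 FPKM in LL_Ctrl and passed the limit for testing through LL_WBI. The groups did not overlap for 7 tested members that were higher and 6 that were lower, against backgrounds of 9.90% and 19.0%. The median log2 fold change was -0.12 for the members and -0.12 for all genes.

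Tnfrsf12a was at 11.2, 21.2 and 26.4 FPKM in LL_WBI, against 5.89, 5.49 and 6.16 FPKM in LL_Ctrl. Its lowest irradiated library was still well above the tight controls, and the log2 fold change was 1.64 ± 0.30 (adjusted p = 0.110), the smallest adjusted p of the family. Tnfrsf18 was at 1.26, 3.62 and 3.03 FPKM in LL_WBI, against 0.779, 0.704 and 0.683 FPKM in LL_Ctrl, with a log2 fold change of 1.61 ± 0.39 (adjusted p = 0.160). Tnf was at 1.37, 1.61 and 3.16 FPKM in LL_WBI, against 0.663, 0.715 and 1.12 FPKM in LL_Ctrl, with a log2 fold change of 1.14 (adjusted p = 0.208). In each of these genes LL_WBI 1 was the lowest irradiated library. It also stood apart in the crypt gene Olfm4, at 219 FPKM, against 51.6 and 43.9 FPKM in LL_WBI 2 and 3 and 254 to 276 FPKM in LL_Ctrl, but not in the stem cell gene Lgr5, at 1.61 FPKM beside 0.775 and 1.79 FPKM. Without it 4 members were called, namely Tnfrsf12a (1.999, adjusted p = 0.0119), Tnfrsf18 (2.05, adjusted p = 0.0156), Tnfrsf17 (-1.21, adjusted p = 0.0397) and Tnfsf10 (-1.59, adjusted p = 0.0492), against 4.86% of all genes.

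Tnfrsf11b and Tnfsf12 were less even in the LL mode. Tnfrsf11b was at 0.810, 1.52 and 4.90 FPKM in LL_WBI, against 0.629, 0.832 and 0.955 FPKM in LL_Ctrl, so that LL_WBI 1 overlapped the controls and LL_WBI 3 was far above the rest of its group. LL_WBI 3 also had the highest fibroblast sum of all libraries, 367 FPKM, and was the highest library for 8 members. Tnfsf12 was at 3.01, 3.23 and 5.23 FPKM in LL_WBI, against 2.47, 2.28 and 2.43 FPKM in LL_Ctrl, with a log2 fold change of 0.61 (adjusted p = 0.252). The level of RANK over that of osteoprotegerin was 6.12, 1.64 and 1.01 in LL_WBI, against 12.7, 9.22 and 6.55 in LL_Ctrl, with every irradiated library below every control.

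On the lower side, Tnfsf10 (ENSMUSG00000039304), the gene of TRAIL, was at 9.002, 4.08 and 9.14 FPKM in LL_WBI, against 17.4, 18.3 and 20.2 FPKM in LL_Ctrl. The groups were far apart, with a log2 fold change of -1.41 ± 0.31 (adjusted p = 0.145). Cd27, a costimulatory receptor of T cells and memory B cells, was at 0.399, 0.163 and 0.318 FPKM in LL_WBI, against 0.775, 1.05 and 1.02 FPKM in LL_Ctrl, with a log2 fold change of -1.45 ± 0.39 (adjusted p = 0.169). The mean of Cd27 in LL_WBI, 0.293 FPKM, was under the limit of 0.5 FPKM, which it passed through LL_Ctrl. T cell markers were lower alongside, summing to 30.1 to 33.5 FPKM in LL_WBI, against 47.0 to 61.2 FPKM in LL_Ctrl. Tnfrsf14 was at 14.4, 10.9 and 13.3 FPKM in LL_WBI, against 24.2, 19.9 and 15.98 FPKM in LL_Ctrl, again without overlap (log2 fold change -0.63, adjusted p = 0.213). Tnfsf13 was at 14.9, 10.7 and 7.16 FPKM in LL_WBI, against 14.1, 12.9 and 14.8 FPKM in LL_Ctrl, which overlap. The other members below the threshold of unadjusted p were Tnfrsf19 (0.98) and Tnfrsf21, the death receptor DR6 (0.70), on the higher side, and Tnfrsf11a (-0.86), Tnfrsf13b (-0.75), Tnfrsf17 (-0.87) and Ltb (-0.90) on the lower, all as log2 fold changes.

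**Figure D3:**
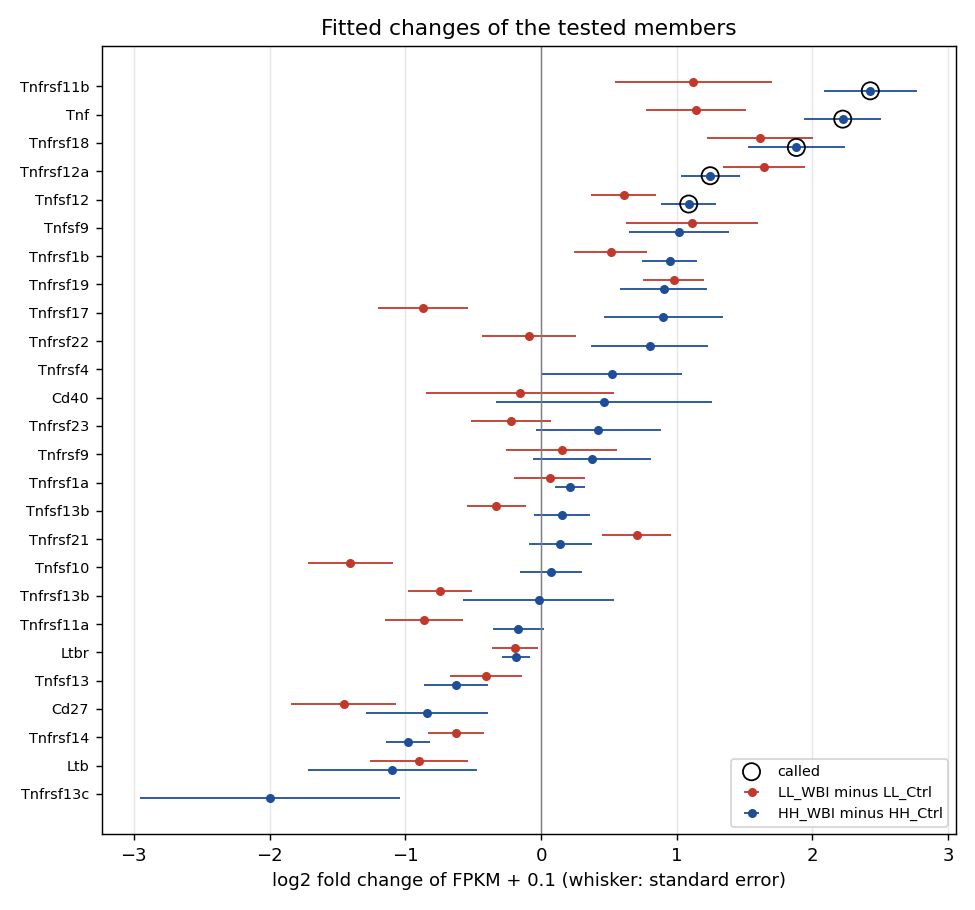
Log2 fold change of FPKM + 0.1 for each tested member in the LL and HH modes, with the standard error as a whisker and rings around calls. All 5 rings are on HH values above 1, and the LL values of Tnfrsf12a and Tnfrsf18 lie near 1.6 without a call.

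Side by side, 18 of the 24 members tested in both modes had log2 fold changes of the same sign (11 positive and 7 negative), against 63.5% of 12520 genes, and these comparisons share no library. The difference between the responses, HH minus LL, was tested over all 12 libraries and called on the adjusted p alone. None of 25 members passed, against 7.37% of 12921 genes, and 3 had an unadjusted p under 0.05, against 24.3%. Those were Tnfsf10 (1.48, 95% interval 0.56 to 2.40, adjusted p = 0.0551), Tnfrsf17 (1.77, 95% interval 0.50 to 3.04, adjusted p = 0.0861) and Tnf (1.08, 95% interval 0.04 to 2.12, adjusted p = 0.188), all on the log2 scale. For Tnfrsf11b the difference was 1.31, with a 95% interval of -0.27 to 2.88. The 5 members called in the HH mode were thus not shown to respond differently in the LL mode, and the intervals allow sizeable differences either way for some.

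Tnfsf10 came closest to a difference between the modes. It was at 12.2, 19.2 and 10.4 FPKM in HH_WBI, against 14.6, 13.0 and 11.01 FPKM in HH_Ctrl, with a log2 fold change of 0.07 ± 0.23, beside the lower LL_WBI values given above. With the pancreatic genes removed, the difference of the responses for Tnfsf10 was 1.34 (adjusted p = 0.0430), and with median-ratio scaling 1.29 (adjusted p = 0.0430), where the median of all genes had moved by -0.14 and -0.18. It was also called without LL_WBI 1 (1.66), LL_WBI 2 (1.10), LL_WBI 3 (1.67) or HH_WBI 3 (1.66). Without LL_WBI 3, Tnf (1.43, adjusted p = 0.0390) and Tnfrsf11b (1.99, adjusted p = 0.0213) were called as well, so that 3 members passed, against 15.8% of all genes. Without LL_WBI 1, Tnfrsf17 passed beside Tnfsf10 (2.11, adjusted p = 0.0458).

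Set against each other, the irradiated groups gave no call. None of 24 members passed in HH_WBI against LL_WBI, where the background was 0 of 13049 genes with limma, and 2 had an unadjusted p under 0.05, against 11.2%. Those were Tnfsf10 (0.94, 95% interval 0.11 to 1.78) and Tnfsf13b, the ligand BAFF (0.62, 95% interval 0.03 to 1.21), both higher in HH_WBI with no overlap. By size of change Tnfrsf13b (0.69) and Tnfrsf22 (0.65) followed Tnfsf10. Tnfrsf22, a decoy receptor for TRAIL in mice, was at 1.54, 1.40 and 0.572 FPKM in HH_WBI, against 0.780, 0.442 and 0.808 FPKM in LL_WBI, which overlap. For Tnf the difference was 0.48, with a 95% interval of -0.34 to 1.3, and for Tnfrsf12a -0.12, with a 95% interval of -0.83 to 0.58.

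Tnfrsf13c and Ltb were high in the control libraries rich in B cell markers. Tnfrsf13c (ENSMUSG00000068105), the BAFF receptor of mature B cells, was at 0.247, 0.383 and 0.175 FPKM in HH_WBI, against 3.86, 0.156 and 2.78 FPKM in HH_Ctrl. HH_Ctrl 1 and 3, the libraries rich in B cell markers, were the high ones, and HH_Ctrl 2 lay with the irradiated libraries. The log2 fold change was -1.996 ± 0.955 (adjusted p = 0.138), and without HH_Ctrl 2 it was -3.24 (adjusted p = 0.00473). Tnfrsf13c averaged 0.268 FPKM in HH_WBI and passed the limit of 0.5 FPKM through HH_Ctrl. In the LL mode Tnfrsf13c was at 0.086, 0.240 and 0.200 FPKM in LL_WBI, against 0.251, 1.10 and 0.192 FPKM in LL_Ctrl. The highest control there, LL_Ctrl 2, also had the highest B cell sum of its group, 13.6 FPKM.

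Ltb, the membrane anchor of lymphotoxin made by lymphocytes, followed the same libraries. It was at 2.42, 3.08 and 1.94 FPKM in HH_WBI, against 9.32, 1.65 and 9.57 FPKM in HH_Ctrl, and its log2 fold change of -1.10 (adjusted p = 0.200) became -1.91 (adjusted p = 0.00483) without HH_Ctrl 2. Cd40, the receptor through which T cells help B cells, was at 1.68, 0.855 and 1.35 FPKM in HH_WBI, against 1.51, 0.141 and 2.32 FPKM in HH_Ctrl. Here too HH_Ctrl 2 was the low one. With HH_Ctrl 1 and 3 both left out, which leaves 1 control library assumed to vary like the others, 6 of 24 members were called in the HH mode, against 7.88% of all genes, and Tnf (1.92), Tnfrsf12a (1.71) and Tnfrsf18 (2.58) were among them, while Tnfrsf11b (2.02, adjusted p = 0.0526) and Tnfsf12 (1.19, adjusted p = 0.0742) were not. Cd40 (2.48), Tnfrsf1b (1.32) and Tnfrsf14 (-1.05) were the ones added. With LL_Ctrl in place of HH_Ctrl, the 5 members called higher were the 5 of the main comparison, from 1.01 for Tnfrsf11b to 1.81 for Tnfrsf18.

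Receptors for APRIL and BAFF on later B cells did not share one pattern. Tnfrsf13b (TACI) was at 1.52, 1.62 and 3.28 FPKM in HH_WBI, against 2.78, 0.786 and 3.73 FPKM in HH_Ctrl, and at 1.36, 1.09 and 1.18 FPKM in LL_WBI, against 1.73, 2.56 and 2.06 FPKM in LL_Ctrl. Only the LL groups were apart. Tnfrsf17 (ENSMUSG00000022496), which encodes BCMA, the receptor of plasma cells, was at 1.17, 1.24 and 1.05 FPKM in HH_WBI, against 0.832, 0.230 and 0.870 FPKM in HH_Ctrl. In the LL mode it was at 1.73, 0.721 and 0.877 FPKM in LL_WBI, against 2.27, 1.90 and 1.78 FPKM in LL_Ctrl. Tnfrsf17 was therefore above its controls in the HH mode and below them in the LL mode, beside plasma cell markers that summed to 397 to 536 FPKM in HH_WBI, against 262 to 330 FPKM in HH_Ctrl, and to 475 to 616 FPKM in LL_WBI, against 577 to 834 FPKM in LL_Ctrl. The 6 genes of that sum were not alike in the LL mode. Jchain was at 384, 285 and 400 FPKM in LL_WBI, against 420, 496 and 674 FPKM in LL_Ctrl, whereas Sdc1 was at 36.7, 45.3 and 55.8 FPKM in LL_WBI, against 24.98, 25.2 and 25.4 FPKM in LL_Ctrl.

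**Figure D4:**
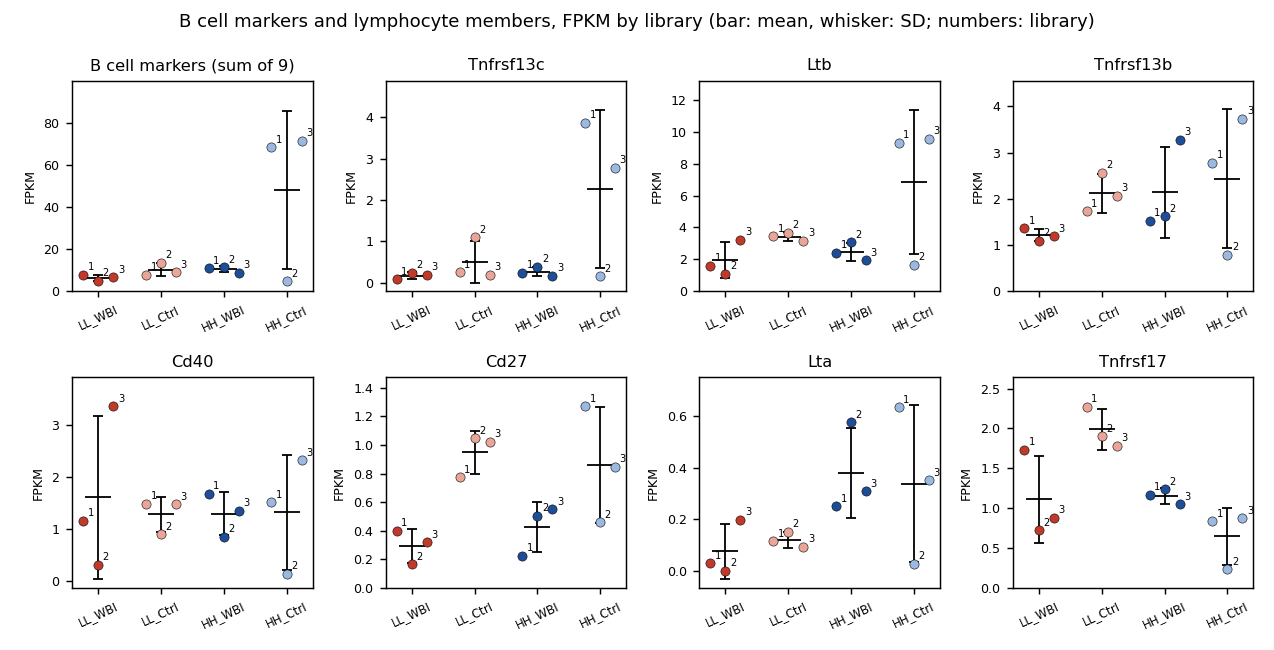
FPKM in every library of the summed B cell markers and of 7 members of lymphocytes, with group means as bars, SD of 3 libraries as whiskers and library numbers beside the points. HH_Ctrl 1 and 3 are high and HH_Ctrl 2 is low for the marker sum, Tnfrsf13c and Ltb, while Tnfrsf17 is highest in LL_Ctrl.

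The controls of the modes differed from each other. In HH_Ctrl against LL_Ctrl, 2 of the 24 members tested were called, both lower (8.33%), against 14.2% of 12595 genes in either direction and 11.9% lower. Tnfrsf11b had a log2 fold change of -1.41 ± 0.30 (adjusted p = 0.00700) and Tnfrsf17 of -1.63 ± 0.41 (adjusted p = 0.0150), with no overlap in either. These values share the HH_Ctrl libraries with the HH comparison, so the high fold of Tnfrsf11b there rests in part on a control level below that of LL_Ctrl. Tnfrsf11b averaged 0.244 FPKM in HH_Ctrl and passed the limit of 0.5 FPKM through LL_Ctrl, where it averaged 0.805 FPKM. Without LL_Ctrl 2 or LL_Ctrl 3, Tnfrsf11b fell under the limit for testing, and its call ended without HH_Ctrl 1 and 3 (-1.002, adjusted p = 0.0720), with all libraries in a joint fit (-1.41, adjusted p = 0.0623) and with a pseudocount of 1 (-0.54). Without HH_Ctrl 2 there were 4 calls, Ltb (1.44) and Tnfrsf13c (2.77) being higher. A further 5 members passed the adjusted p, as 44.8% of all genes did, with a smaller fold, namely Tnfrsf1a (0.48, adjusted p = 0.00184) and Tnfrsf21 (0.76, adjusted p = 0.00376) on the higher side, and Tnfsf10 (-0.54, adjusted p = 0.00943), Tnfrsf11a (-0.63, adjusted p = 0.0229) and Tnfrsf23, the other decoy receptor for TRAIL (-0.88, adjusted p = 0.0246), on the lower. Without HH_Ctrl 1, Tnfrsf23 was called lower too (-1.13).

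Among 53 other genes of the pathway, the receptors Eda2r and Relt, the adaptors and the targets of NF-kappaB were counted in the same fits. In the HH mode 6 of 46 tested were called, all higher (13.0%, against 12.4% of all genes). Those were the p53-induced receptor Eda2r (3.79, adjusted p = 0.000854), the chemokine Ccl2 (4.39, adjusted p = 0.00172), the adhesion genes Vcam1 (2.504, adjusted p = 0.00436) and Icam1 (1.60, adjusted p = 0.00710), the kinase gene Chuk (1.11, adjusted p = 0.00103) and Relt (1.22, adjusted p = 0.0169). Ccl2 was at 4.36, 6.51 and 1.34 FPKM in HH_WBI, against 0.049, 0.046 and 0.109 FPKM in HH_Ctrl. Eda2r was at 3.05, 1.95 and 1.83 FPKM in HH_WBI, against 0.063, 0.058 and 0.084 FPKM in HH_Ctrl. Both genes passed the limit of 0.5 FPKM for testing only through HH_WBI. In the LL mode 1 of 48 was called, Eda2r (2.96, adjusted p = 0.0263). It was at 1.87, 4.31 and 3.39 FPKM in LL_WBI, against 0.324, 0.300 and 0.279 FPKM in LL_Ctrl, and passed the limit through LL_WBI. The call of Eda2r in the LL mode ended without LL_Ctrl 1, LL_Ctrl 2, LL_Ctrl 3 or LL_WBI 2, with log2 fold changes of 2.71 to 3.001 and adjusted p of 0.116 to 0.143, and that of Relt in the HH mode without HH_Ctrl 1 or HH_Ctrl 2, with log2 fold changes of 1.16 and 1.101 and adjusted p of 0.0601 and 0.0546. The next smallest p in the LL mode were those of Il6 (2.02, adjusted p = 0.160) and of the death receptor Fas (-0.70, adjusted p = 0.190). Il6, at 0.042, 0.309 and 0.235 FPKM in LL_Ctrl, also passed the limit through LL_WBI. Between the controls 6 of 44 were called lower in HH_Ctrl (13.6%, against 11.9% of all genes), with Fas (-1.16), Fasl (-1.17), Relt (-1.45), Chuk (-1.42), Cyld (-1.04) and Adam17 (-1.04). By the fold limit, the call of Fasl ended without LL_Ctrl 1 or HH_Ctrl 3, that of Cyld without HH_Ctrl 2 and that of Adam17 without HH_Ctrl 3, at log2 fold changes of -0.95 to -0.996. Fasl, at 0.556, 0.485 and 0.297 FPKM in HH_Ctrl, passed the limit for testing through LL_Ctrl. Between the irradiated groups 0 of 48 were called, with 1 at an unadjusted p under 0.05. For the difference of the responses 5 of 47 were called, all higher in the HH mode (10.6%, against 7.37%), and their calls depend on single libraries, Chuk excepted.

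By position, 14 of the 33 members had a protein-coding neighbour in RefSeq whose symbol fits the rule, whatever its level. For Tnfsf4 that neighbour was Tnfsf18 and for Tnfrsf1b it was Tnfrsf8, which are not among the members. Chromosome 4 held 8 members and chromosome 17 held 7, with Ltb, Tnf and Lta side by side. In the HH mode the log2 fold change of Tnf was 2.22 and that of Ltb -1.10, and Lta was at 0.250, 0.577 and 0.309 FPKM in HH_WBI, against 0.634, 0.027 and 0.352 FPKM in HH_Ctrl. The neighbours Tnfsf15 and Tnfsf8 on chromosome 4 both lay above HH_Ctrl in every HH_WBI library, while LL_WBI and LL_Ctrl overlapped for both. Tnfrsf22, Tnfrsf23 and Tnfrsf26, close relatives that lie in a row on chromosome 7, may share reads, and their values are uncertain.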

How the data were processed

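Intestinal RNA was sequenced from 12 samples in 4 groups of 3, and each column of values was mapped to its sample by its label. The deposited values are FPKM per gene, computed by the authors in StringTie (version 1.3.1). The submitters' processing notes list Bowtie 0.12.2 as well, and 3 builds (mm8, GRCm39, mm39), with no role for any, so no coordinates were drawn from the values. The labels describe removal of ribosomal RNA and a stranded preparation, the methods of the study oligo(dT) beads, and which was used was not settled. The authors used DESeq2 on read counts, which were not used here, so the depth of the libraries is unknown and no interval for counting error is given.

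FPKM plus a pseudocount of 0.1 were taken to log2, and every gene that averaged 0.5 FPKM or more in a comparison entered a limma fit by group (limma 3.58.1 in R 4.3.3, variance trend on, no block) with Benjamini-Hochberg adjustment over all of them. A gene was called when its adjusted p was under 0.05 and its log2 fold change above 1 in size. The difference of the responses, (HH_WBI minus HH_Ctrl) minus (LL_WBI minus LL_Ctrl), was called on the adjusted p alone. Named in full are members called in any comparison, the 3 with the largest change in each and the 5 with the highest mean, and others were singled out after their values were seen, as were Tnfrsf1b, Tnfrsf11a, Ltb, Cd40 and Lta. The members, the pathway list and the 23 marker lists were chosen with earlier results of these data known.

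Alternatives were another pseudocount (1 or 0.01), no filter or a mean of 0.1 FPKM, the library number as a block, median-ratio scaling, removal of 21 pancreatic genes with rescaling of the rest, the adjusted p alone, all libraries in a joint fit, other controls, each library left out, and pairs of libraries left out. The 21 genes removed included the goblet gene Zg16, at 2261 to 4788 FPKM in the libraries, and Gcg, at 5.06 to 53.0 FPKM. The fit was also run on simulated data with independent noise for each gene and library. Those data hold none of the differences in library make-up described above, so they cannot show how the fit behaves under them. Nothing in the results rests on that run. Promoters were read from RefSeq GRCm38.p6. Python 3.11.15 with pandas 2.3.3, numpy 2.4.6 and matplotlib 3.10.9 was used for tables and plots.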

Additional observations from a re-analysis of the deposited data

Results flagged for a closer look

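Flagged were members or pathway genes whose difference of the responses was called, and members that lay apart from their controls in opposite directions. These rules gave 6 genes. Tnfrsf17 was lower than its controls in every LL_WBI library and higher in every HH_WBI library. The gap in the LL mode was narrow, with 1.73 FPKM in LL_WBI 1 and 1.78 FPKM in LL_Ctrl 3. Its difference of the responses was 1.77 on the log2 scale, and the test of that difference gave an adjusted p of 0.0861 with limma. Its log2 fold change was -1.63 between the controls (HH_Ctrl against LL_Ctrl) and 0.13 in HH_WBI against LL_WBI. In the pathway list, the difference between the modes itself passed the test for Chuk (1.47, adjusted p = 0.0110), Tab2 (1.12, adjusted p = 0.0175), Cyld (1.07, adjusted p = 0.0248), Adam17 (0.92, adjusted p = 0.0333) and Cflar (0.90, adjusted p = 0.0498). All 5 had negative log2 fold changes in the LL mode and between the controls (HH_Ctrl against LL_Ctrl), as with Chuk at 24.3, 24.7 and 21.8 FPKM in HH_WBI, against 11.8, 10.5 and 10.3 FPKM in HH_Ctrl, and at 25.8, 16.9 and 26.7 FPKM in LL_WBI, against 27.6, 30.5 and 29.6 FPKM in LL_Ctrl. Chuk thus was lowest in the HH_Ctrl libraries. With 1 library left out, the call ended for Cflar in 10 of 12 cases (all but LL_WBI 2 and LL_WBI 3), for Adam17 in 8 (any LL_Ctrl or HH_Ctrl library, HH_WBI 1 or HH_WBI 2), for Cyld in 7 (any LL_Ctrl library, HH_Ctrl 2, HH_Ctrl 3, HH_WBI 1 or HH_WBI 2), for Tab2 in 2 (LL_Ctrl 2 or LL_Ctrl 3) and for Chuk in 0, with adjusted p of 0.0528 to 0.118 where it ended. Without HH_Ctrl 1 and 3 together all 5 calls ended, with adjusted p of 0.0609 to 0.22, at differences of 1.52 for Chuk, 1.24 for Tab2, 1.20 for Cyld, 1.10 for Cflar and 0.77 for Adam17. The part of the controls in these differences was not tested.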

How the results depend on the processing

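No member called or most changed in a comparison changed its sign in a setting where it was tested. The make-up of the calls did change. Without HH_Ctrl 2 the HH comparison had 5 higher and 2 lower calls (10.6% of all genes), against 5 and 0 in the main fit (12.4%). Between the controls, Ltb and Tnfrsf13c were called higher without HH_Ctrl 2, while the calls of the main fit were all lower. Tnfrsf13c was under the limit for testing in the HH comparison and between the controls without HH_Ctrl 1 and 3, and HH_Ctrl 2 alone, at 0.156 FPKM, was below every HH_WBI and LL_Ctrl library. The log2 fold change of Ltb between the controls was 0.62, and it was 1.44 without HH_Ctrl 2 and -1.01 without HH_Ctrl 1 and 3. In the LL comparison no member was called. With the library number as a block 1 was called (Tnfrsf12a, adjusted p = 0.0356), against 0.896% of all genes. With all 6 controls it was 1 (1.6% of all genes), and with all 12 libraries in a joint fit 2 (1.73%). With HH_Ctrl in place of LL_Ctrl it was 4 of 25 (12.5%), and with a library left out 0 to 4 (0.0233% to 4.86%). In the HH comparison there were 5 calls. With no filter 8 were made (10.6% of all genes), and with a mean of at least 0.1 FPKM also 8 (12.8%). There the 3 added had HH_Ctrl means of 0.1 FPKM or less. With a library left out 5 to 8 were called, such as 5 without HH_Ctrl 1 (10.9% of all genes), 7 without HH_Ctrl 3 (11.7%) and 8 without HH_WBI 3 (12.8%). Between the controls there were 2 calls. The count was 0 with a pseudocount of 1 and 1 in the joint fit. With no filter it was 4, and with a mean of at least 0.1 FPKM also 4. It was 7 on the adjusted p alone (44.8% of all genes), and 1 to 4 with a library left out. For the difference of the responses, with 0 calls, there was 1 with median-ratio scaling, 1 with the pancreatic genes removed, 3 without LL_WBI 3 and HH_WBI 3, 1 without HH_Ctrl 1 and 3, and 0 to 3 with a library left out. Between the irradiated groups the count was 0 in every setting. In the test of the difference, 870 genes were called higher and 82 lower in the main setting. These numbers were 824 and 348 with median-ratio scaling, and 902 and 351 with the pancreatic genes removed. For the other counts between the controls, the other counts of the difference and the rest of the HH range, no share over all genes is given. Those counts are not set against genes at large. Leaving out HH_Ctrl 1 and 3 together was chosen after seeing the data. The cause of these changes was not tested. Median-ratio scaling moved the median of all genes by 0.16 between the controls and by -0.18 for the difference of the responses, and the share of calls that were higher was 70.1% with it, against 80.8% without it, in the HH comparison, 27.2% against 16.3% between the controls, and 70.3% against 91.4% for the difference. Whether the same library number pairs the libraries cannot be settled with 3 in a group. Correlations of same-numbered deviations were -0.04 to 0.10 in the LL and 0.06 to 0.24 in the HH comparison. Number 3 had 0.24 in the HH comparison, against -0.07 at most with another number. In the LL comparison number 3 had 0.006, against 0.17 at most with another. The block changed no other call of a member. Depth limits the 8 members with means of 0.1 to 0.5 FPKM most, and without counts that limit has no number.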
